A study of Mus musculus with 375 samples.

Results

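The nuclear genes for the subunits of respiratory complexes III and IV and of ATP synthase, together with cytochrome c, were followed through single heart muscle cells of pressure-overloaded mouse hearts. Members were taken by gene symbol, namely every symbol that starts with Uqcr, with Cox followed by a digit from 4 to 8 and a letter, or with Atp5, and the genes Cyc1 and Cycs. Of 46 matching symbols the pseudogene Cox5b-ps was left out, which gave 45 members among 21872 genes. They comprised 9 genes of complex III, Cycs for cytochrome c, 18 genes of complex IV and 17 genes of ATP synthase.

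Cardiomyocytes were isolated from the left ventricle of C57BL/6N mice at 2 weeks from transverse aortic constriction (TAC), in which a suture around the aorta raises the load on the heart. The mice were 8-week-old males, and each group had 2 numbered sets of cells. CD8-depleted mice received an antibody against CD8, which removes CD8+ T cells, by injection into the peritoneum from the day of TAC and every 3 days after it. CD3e-/- mice carry no functional gene for the epsilon chain of CD3 and lack T cells from birth. WT mice had intact T cells and the same operation, so TAC is shared by all 3 groups and no cells of sham-operated hearts were analysed here. The comparisons ask how the respiratory chain genes of heart muscle cells under pressure overload stood when CD8+ T cells, or all T cells, were missing. Cells came from a pair of mice per the study's methods, nothing ties a set number to a mouse, and p-values therefore measure only the spread between sets, which may be technical.

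Complex III passes electrons from ubiquinol to cytochrome c, complex IV passes them from cytochrome c to oxygen, and ATP synthase uses the proton gradient so built to make ATP. The catalytic core of complex IV (mt-Co1, mt-Co2 and mt-Co3), cytochrome b of complex III (mt-Cytb) and parts of the ATP synthase membrane domain (mt-Atp6 and mt-Atp8) are encoded in mitochondrial DNA. All other subunits are nuclear, and those found by the symbol rule are described here. The beating heart draws most of its ATP from this chain. In heart and skeletal muscle, complex IV carries muscle forms of a few small subunits, Cox6a2, Cox7a1 and Cox8b, in place of the forms found in most tissues, Cox6a1, Cox7a2 and Cox8a.

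Of 375 cells, 320 were kept, with 62 and 49 cells in the CD8-depleted sets, 11 and 77 in the CD3e-/- sets and 59 and 62 in the WT sets. The values are counts per 1000000 nuclear counts (CPM), summed over the cells of a set. Nuclear counts numbered 7643239 and 5469742 in the CD8-depleted sets, 604652 and 24057660 in the CD3e-/- sets and 23691021 and 20540110 in the WT sets. A CPM is a share, so a lower value cannot be told apart from more of other transcripts. Mitochondrially encoded genes took a median of 94.0% and 90.8% of a cell's counts in CD8-depleted sets, 94.1% and 92.1% in the CD3e-/- sets and 77.3% and 85.3% in the WT sets. CD3e-/- set 1 stood apart, with a correlation of 0.616 to 0.654 with the other sets on log2(CPM + 1), against 0.937 to 0.969 among the other sets. Each comparison was therefore fitted over 6 sets and over the 5 sets without it, and some genes are given from 1 of these fits only. The targeted gene Cd3e (chromosome 9, 44998740 to 45009627, mm10) had 4 and 37 counts among cells labelled CD3e-/-, 1 and 2 among CD8-depleted cells and none among WT cells. It is a T cell gene that heart muscle does not use and the deleted part is not given, so its counts check no label, and these sets are called by their label.

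All 10 cardiomyocyte markers were read in every set. Their sum was 193800 and 170100 CPM in the CD8-depleted sets, 62660 and 160700 CPM in the CD3e-/- sets and 138200 and 184900 CPM in the WT sets. The 6 endothelial markers summed to 231 and 1089 CPM, 1497 and 306 CPM, and 323 and 293 CPM in the same sets, and the 8 fibroblast markers to 77.6 and 301 CPM, 440 and 189 CPM, and 108 and 25.1 CPM, with Pdgfra at 0 in CD8-depleted set 1 and WT set 2. The endothelial and fibroblast markers were thus highest in CD3e-/- set 1, and among the remaining sets highest in CD8-depleted set 2. The 5 mural markers followed the same order, with 137.5 and 282 CPM, 958 and 205 CPM, and 219 and 231 CPM. The 6 macrophage and leukocyte markers summed to 12.95 and 16.45 CPM, 106 and 17.8 CPM, and 19.04 and 3.60 CPM, again highest in CD3e-/- set 1. The 4 erythroid markers had 300.1 and 309 CPM, 212 and 27.4 CPM, and 358 and 588 CPM, and were highest in WT cells. Their part in the results below was not tested.

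Promoters are shown for 4 members on which the comparison of CD8-depleted with WT cells turns, namely the muscle isoforms Cox8b and Cox7a1 on the higher side and Uqcrfs1 and Cycs on the lower side. The sequences are those of RefSeq on GRCm38.p6, from 250 bases before to 50 bases after the start given there, 5′ to 3′ on the strand of the gene. For Cox7a1, Uqcrfs1 and Cycs that start differs from the outer gene coordinate given further below. Cox8b lies at chr7:140900397-140900696 on the minus strand, Cox7a1 at chr7:30183921-30184220 on the plus strand, Uqcrfs1 at chr13:30545267-30545566 on the minus strand and Cycs at chr6:50566520-50566819 on the minus strand. Capitals mark matches to any of the 5 motifs searched.
Cox8b: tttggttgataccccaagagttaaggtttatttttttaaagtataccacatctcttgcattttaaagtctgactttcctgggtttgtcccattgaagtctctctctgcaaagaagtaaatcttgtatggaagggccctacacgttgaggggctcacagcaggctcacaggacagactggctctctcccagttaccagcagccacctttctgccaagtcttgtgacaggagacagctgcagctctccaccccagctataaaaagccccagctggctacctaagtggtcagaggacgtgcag
Cox7a1: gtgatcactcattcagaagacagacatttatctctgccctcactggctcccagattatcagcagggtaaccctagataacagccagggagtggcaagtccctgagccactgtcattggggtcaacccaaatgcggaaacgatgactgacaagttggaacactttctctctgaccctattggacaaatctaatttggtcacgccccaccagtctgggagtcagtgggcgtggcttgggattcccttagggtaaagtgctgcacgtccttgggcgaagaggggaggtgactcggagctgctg
Uqcrfs1: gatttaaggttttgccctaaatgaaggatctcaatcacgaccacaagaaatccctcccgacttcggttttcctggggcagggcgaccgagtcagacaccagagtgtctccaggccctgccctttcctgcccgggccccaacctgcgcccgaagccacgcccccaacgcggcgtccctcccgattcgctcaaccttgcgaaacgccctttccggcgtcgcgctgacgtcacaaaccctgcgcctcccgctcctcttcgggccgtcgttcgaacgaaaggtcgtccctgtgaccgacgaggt
Cycs: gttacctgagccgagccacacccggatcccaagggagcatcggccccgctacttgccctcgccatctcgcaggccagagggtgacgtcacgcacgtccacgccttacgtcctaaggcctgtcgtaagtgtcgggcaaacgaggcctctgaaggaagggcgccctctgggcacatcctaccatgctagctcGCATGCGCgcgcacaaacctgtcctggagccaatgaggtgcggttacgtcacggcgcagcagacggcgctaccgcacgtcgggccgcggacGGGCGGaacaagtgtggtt

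The search covered both strands of these 300 bases for NRF1 (GCATGCGC), the ETS site that GABP binds (CCGGAAG), YY1 (AAGATGGCG), the estrogen-related receptors (TCAAGGTCA) and the GC box (GGGCGG). NRF1, GABP, YY1 and the estrogen-related receptors are transcription factors known for driving respiratory chain genes. Among the 34 members with an entry, the NRF1 letters were found in 7 (20.6%), against 3.05% of 27025 promoters, and the ETS letters in 11 (32.4%), against 9.93%. YY1 letters were found in 2 members (5.88%, against 1.64% of all promoters), those of the estrogen-related receptors in 1 (2.94%, against 0.466%) and the GC box in 13 (38.2%, the same share as in all promoters). Cycs had an NRF1 match and a GC box, while Cox8b, Cox7a1 and Uqcrfs1 had no match in this window. Such a match is a description of letters and shows no binding.

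The levels per kilobase of exon placed the muscle isoforms at the top. Averaged over the 5 sets without CD3e-/- set 1, Cox6a2 had 20723 CPM per kilobase, Cox7a1 had 10883 and Cox8b had 9154. Uqcr11, a small subunit of complex III, came next with 6088 CPM per kilobase, followed by Cox6b1 of complex IV with 4783 and Atp5h, the d subunit in the peripheral stalk of ATP synthase, with 3630. At the low end of the widely expressed members stood Cox7a2l with 147 CPM per kilobase, Atp5g2 with 131 and Atp5l with 128. The deposited exon length covers all exons of a gene, so a gene with long, little-used exons is understated on this scale.

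**Figure D1:**
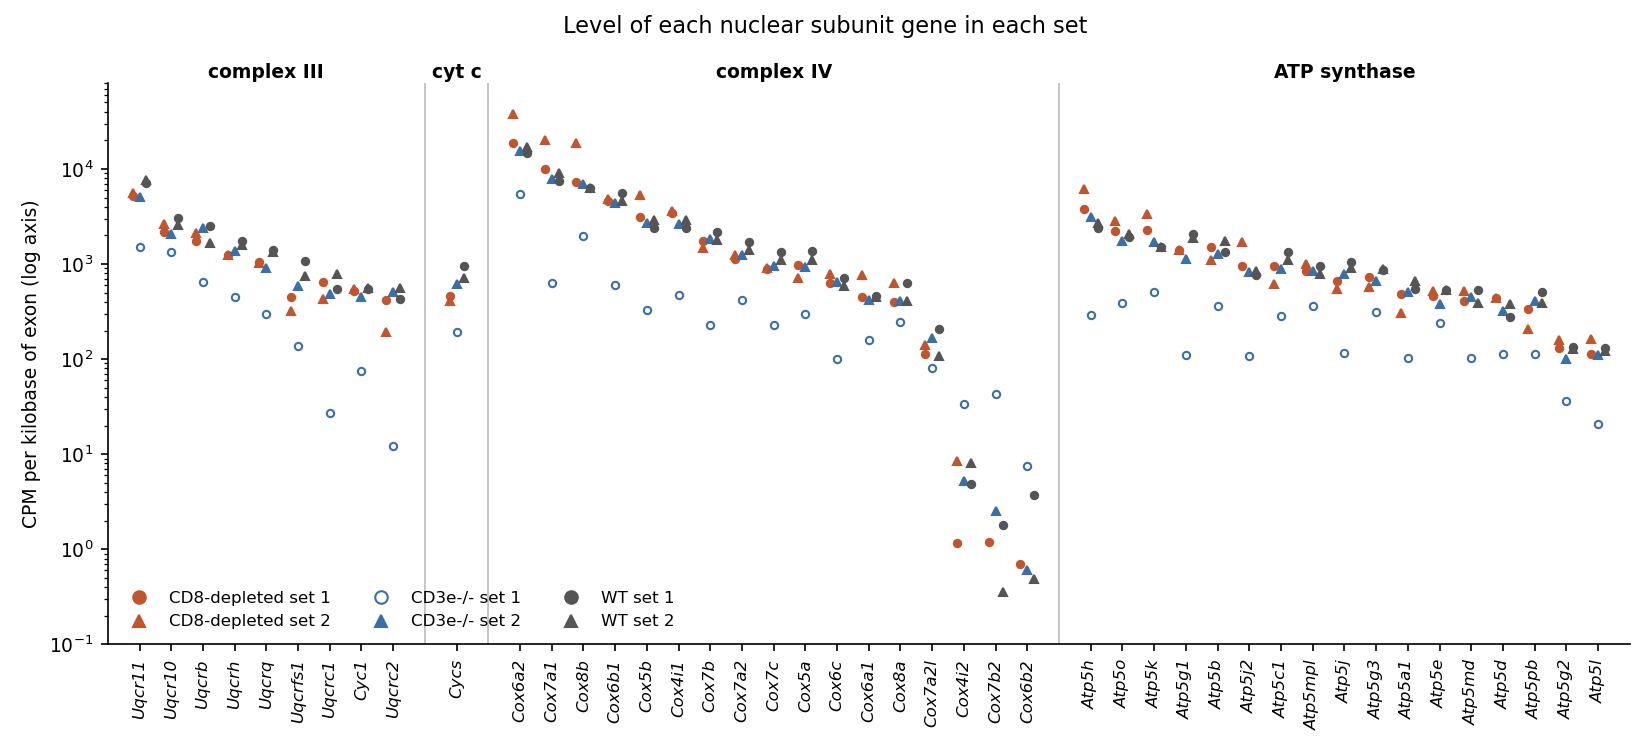
Level of each member in CPM per kilobase of exon (log axis), ordered within complex, with one marker per set; CD8-depleted left, CD3e-/- next and WT last, and open circles for CD3e-/- set 1. Cox6a2, Cox7a1 and Cox8b lead complex IV, levels of 0 (Cox6b2 and Cox7b2 in CD8-depleted set 2) are not drawn, and Cox8c, at 0 in every set, is left out.

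Isoforms known from other tissues were nearly absent. Cox8c, a testis form of subunit 8, had a count in 0 of 320 cells, which allows a share of up to 0.938% of cells with a count. Cox6b2 and Cox7b2, testis forms of subunits 6b and 7b, were read in 23 and 14 of 320 cells, and Cox4i2, the lung form of subunit 4, in 28. Cox4i1, the common form of subunit 4, took 99.97% and 99.76% of the length-adjusted counts of the Cox4i1 and Cox4i2 pair in the CD8-depleted sets, 93.37% and 99.80% in the CD3e-/- sets and 99.80% and 99.72% in the WT sets. The remaining 41 members each averaged at least 100 CPM.

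Together the members made up 10.2% and 13.2% of nuclear counts in CD8-depleted sets, 2.13% and 9.21% in the CD3e-/- sets and 10.6% and 10.7% in the WT sets. CD8-depleted set 2 was the highest and CD3e-/- set 1 the lowest. Complex III summed to 15042 and 14210 CPM in the CD8-depleted sets, 3921 and 14925 CPM in the CD3e-/- sets and 19325 and 19160 CPM in the WT sets, so that both WT sets stood above the other 4. Complex IV summed to 43630 and 69751 CPM in the CD8-depleted sets, 8752 and 38326 CPM in the CD3e-/- sets and 39852 and 40917 CPM in the WT sets. Here both CD8-depleted sets were above both WT sets, set 1 by little. Of this sum the 3 muscle isoforms held 20878 and 42947 CPM in the CD8-depleted sets and 16282 and 18708 CPM in the WT sets. In CD8-depleted against WT cells over 6 sets, 10 of 17 complex IV genes tested were below 0 in log2 fold change (median -0.083). ATP synthase summed to 41693 and 46256 CPM in the CD8-depleted sets, 7986 and 36689 CPM in the CD3e-/- sets and 43773 and 44080 CPM in the WT sets. The CD8-depleted and WT sets overlapped here. The ratio of the complex IV sum to the complex III sum was 2.90 and 4.91 in the CD8-depleted sets, 2.23 and 2.57 in the CD3e-/- sets and 2.06 and 2.14 in the WT sets.

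In CD8-depleted against WT cells, complex III genes and cytochrome c were lower in value and the muscle isoforms of complex IV were higher. ATP synthase genes had both signs, and no single member passed the test. In the quasi-likelihood test of edgeR, run on 6 sets, 0 of 44 members tested were called at an adjusted p under 0.05, with 0.0% of 12936 genes called. At an unadjusted p under 0.05 there were 0 members and 341 genes. DESeq2 on the same sums called 8 genes and no member. Over 5 sets, edgeR called 0 members and 0.239% of 13374 genes, and 5 members (11.4%, against 9.94% of all genes) had an unadjusted p under 0.05. DESeq2 over 5 sets called 1.17% of genes and 1 member, Uqcrfs1, with a log2 fold change of -1.18 and an adjusted p of 0.032. The median log2 fold change of the members was -0.235 over 6 sets and -0.255 over 5 sets, against 0.018 and -0.019 for all genes tested.

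The count of members whose CD8-depleted sets both stood above both WT sets was 10 of 44, near the background of 21% of genes. Both CD8-depleted sets stood below both WT sets in 18 of 44 members, with a background of 19.8% over all genes. Among genes at or above 100 CPM, to which 41 members belong, the backgrounds were 22.8% above and 33.6% below, against 10 and 18 of the 41. Scaling by TMM factors made these counts 7 and 15 of 44, with backgrounds of 20.6% above and 20.5% below over all genes. With mitochondrially encoded counts kept in the totals the member counts were 0 and 36 of 44. Of all genes, 5.33% and 56.4% then stood above and below.

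**Figure D2:**
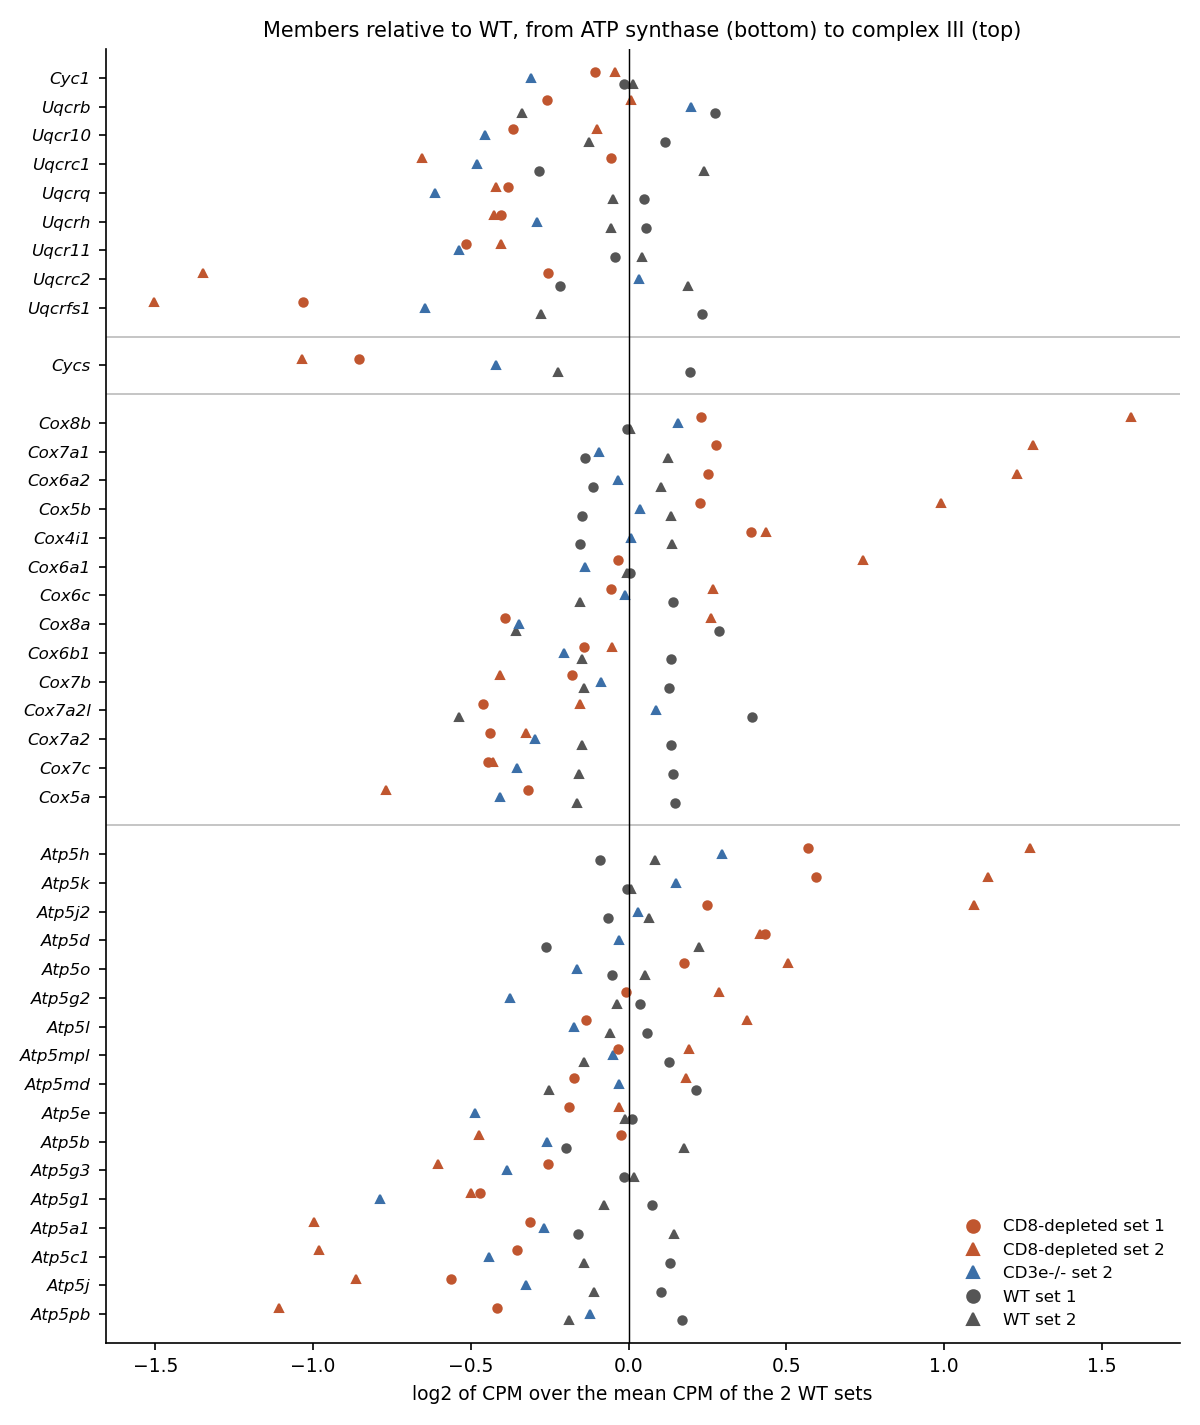
CPM of each of the 41 members at or above 100 CPM divided by its WT mean (log axis), one marker per set, without CD3e-/- set 1, which lies far below. Cox8b reaches 3.01 in CD8-depleted set 2 and 1.17 in set 1, and Uqcrfs1 stands at 0.489 and 0.353 in the CD8-depleted sets.

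All 9 genes of complex III had a fitted value below 0 in CD8-depleted against WT cells, with a median log2 fold change of -0.397 over 6 sets and -0.420 over 5 sets. The lowest was Uqcrfs1, the Rieske iron-sulfur protein, which hands electrons from ubiquinol to cytochrome c1 (chromosome 13, 30540308 to 30545362). Uqcrfs1 had 608 and 439 CPM in the CD8-depleted sets, 187 and 796 CPM in the CD3e-/- sets and 1462 and 1025 CPM in the WT sets. Both CD8-depleted sets were lower than either WT set, with means of 524 ± 120 CPM and 1244 ± 309 CPM (SD, n = 2 each). The log2 fold change was -1.21 with a standard error of 1.11 over 6 sets (edgeR adjusted p = 1) and -1.24 with a standard error of 0.365 over 5 sets (adjusted p = 0.165).

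The core subunit Uqcrc2, which helps hold the dimer together, had 1063 and 498 CPM in the CD8-depleted sets, 31.4 and 1297 CPM in the CD3e-/- sets and 1091 and 1444 CPM in the WT sets. CD8-depleted set 1 was close to WT set 1. Its partner core subunit Uqcrc1 overlapped, with 2657 and 1754 CPM in the CD8-depleted sets, 112 and 1979 CPM in the CD3e-/- sets and 2264 and 3255 CPM in the WT sets. Cyc1, cytochrome c1, was the member of complex III nearest to WT, with 1116 and 1165 CPM in the CD8-depleted sets, 162 and 969 CPM in the CD3e-/- sets and 1190 and 1213 CPM in the WT sets. Of the 5 small subunits, Uqcr11, Uqcrh and Uqcrq did not overlap and Uqcr10 and Uqcrb did. Uqcr11 (chromosome 10, 80402997 to 80406830), the most abundant per kilobase, had 3295 and 3559 CPM in the CD8-depleted sets, 961 and 3242 CPM in the CD3e-/- sets and 4568 and 4848 CPM in the WT sets. Its log2 fold change was -0.47 with a standard error of 1.35 over 6 sets (adjusted p = 1).

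Cycs, cytochrome c, is the soluble carrier between complexes III and IV and also a trigger of apoptosis once outside mitochondria (chromosome 6, 50562563 to 50566538). Cycs had 1568 and 1384 CPM in the CD8-depleted sets, 650 and 2116 CPM in the CD3e-/- sets and 3243 and 2426 CPM in the WT sets. Both CD8-depleted sets were below both WT sets, with means of 1476 ± 130 CPM and 2835 ± 577 CPM (SD, n = 2 each). The log2 fold change was -0.91 with a standard error of 1.23 over 6 sets (adjusted p = 1) and -0.94 with a standard error of 0.372 over 5 sets (adjusted p = 0.361).

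In complex IV the 3 muscle isoforms had the highest values relative to WT, and most of that height came from CD8-depleted set 2. Among all members Cox8b came first, ahead of Atp5h and Atp5k of ATP synthase. Cox8b, the muscle form of subunit 8 (chromosome 7, 140898945 to 140900446), had 2644 and 6804 CPM in the CD8-depleted sets, 713 and 2514 CPM in the CD3e-/- sets and 2251 and 2264 CPM in the WT sets. Set 1 lay just above WT and set 2 far above it, so the mean was 4724 ± 2942 CPM in CD8-depleted cells and 2257 ± 9.72 CPM in WT cells (SD, n = 2 each). Its log2 fold change was 1.04 with a standard error of 1.35 over 6 sets (adjusted p = 1) and 1.03 with a standard error of 0.417 over 5 sets (adjusted p = 0.372). Without CD8-depleted set 2 it was 0.265, and without CD8-depleted set 1 it was 1.52 (adjusted p = 1 in both).

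Cox7a1, the muscle form of subunit 7a (chromosome 7, 30184144 to 30186078), had 5358 and 10749 CPM in the CD8-depleted sets, 336 and 4152 CPM in the CD3e-/- sets and 4024 and 4829 CPM in the WT sets. Its log2 fold change was 0.83 with a standard error of 1.61 over 6 sets (adjusted p = 1) and 0.82 with a standard error of 0.418 over 5 sets (adjusted p = 0.520). Cox6a2, the muscle form of subunit 6a and the most abundant member (chromosome 7, 128205435 to 128206387), had 12876 and 25395 CPM in the CD8-depleted sets, 3662 and 10565 CPM in the CD3e-/- sets and 10007 and 11614 CPM in the WT sets. For both genes set 2 again stood far above set 1, and set 1 only slightly above WT. The log2 fold change of Cox6a2 was 0.79 with a standard error of 1.73 over 6 sets (adjusted p = 1). Leaving out CD8-depleted set 2 gave 0.277 for Cox6a2 and 0.297 for Cox7a1, and leaving out CD8-depleted set 1 gave 1.15 and 1.20. The muscle isoforms are short genes of 360 to 680 bases of exon. With the trend of log2 CPM on exon length removed in each set, the log2 fold changes were 0.83 for Cox8b, 0.77 for Cox7a1 and 0.77 for Cox6a2. That trend was fitted over all genes tested, so a relation with length among the members alone would remain. The part of exon length in these values was not tested.

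The forms of the same subunits found in most tissues had lower log2 fold changes than the muscle forms. Cox6a1 had 313 and 535 CPM in the CD8-depleted sets, 111 and 291 CPM in the CD3e-/- sets and 321 and 319 CPM in the WT sets, with a log2 fold change of 0.39 and a standard error of 0.928 over 6 sets. Cox7a2 had 1073 and 1162 CPM in the CD8-depleted sets, 394 and 1185 CPM in the CD3e-/- sets and 1596 and 1315 CPM in the WT sets, with -0.37 and a standard error of 1.11. Cox8a had 246 and 387 CPM in the CD8-depleted sets, 152 and 254 CPM in the CD3e-/- sets and 394 and 252 CPM in the WT sets, with -0.0026 and a standard error of 0.848. Cox7a2 alone of these lay on one side of WT, below it, and the adjusted p was 1 for each over 6 sets.

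The share of the muscle form within each pair was computed per exon length, which compares levels of 2 genes in the same cells. Cox6a2 took 97.70% and 98.00% of the subunit 6a counts in CD8-depleted sets, 97.15% and 97.40% in the CD3e-/- sets and 96.99% and 97.41% in the WT sets. Cox7a1 took 89.81% and 94.23% of subunit 7a in the CD8-depleted sets, 60.08% and 86.08% in the CD3e-/- sets and 81.65% and 86.63% in the WT sets. Cox8b took 94.86% and 96.80% of subunit 8 in the CD8-depleted sets, 88.96% and 94.45% in the CD3e-/- sets and 90.76% and 93.91% in the WT sets. In all 3 pairs both CD8-depleted sets were above both WT sets, but the WT sets lay further from each other than CD8-depleted set 1 lay from WT set 2. The 95% Wilson interval of the Cox7a1 share was 89.59% to 90.03% in CD8-depleted set 1 and 86.47% to 86.79% in WT set 2, and these intervals cover counting error only, since reads without molecular identifiers are not independent molecules. The median share over single cells gave the same order for Cox7a1, with 89.78% and 94.48% in CD8-depleted cells and 82.21% and 87.62% in WT cells. For Cox8b it did so too, with 95.27% and 96.53% against 91.45% and 94.55%. For Cox6a2 it did not, with 97.97% and 98.19% against 97.27% and 98.02%, so CD8-depleted set 1 lay below WT set 2.

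**Figure D3:**
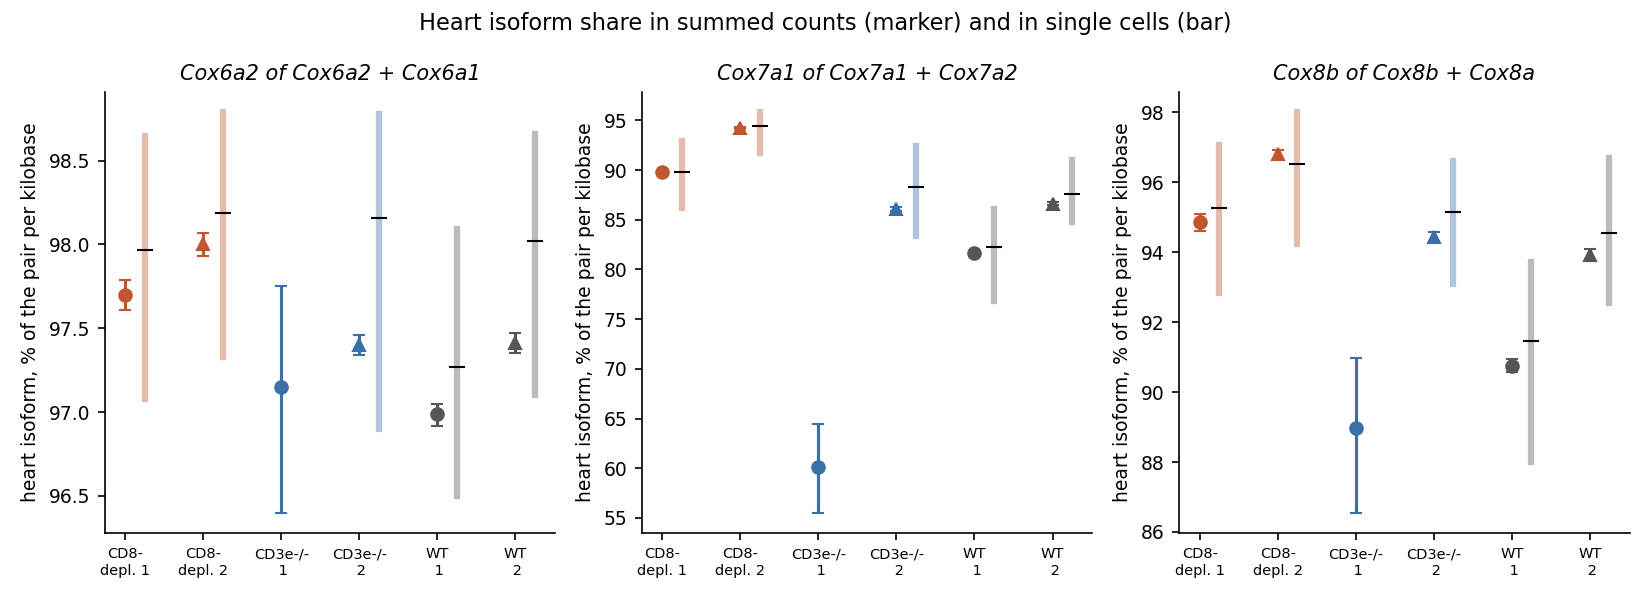
Share of the muscle form in each isoform pair of complex IV, adjusted for exon length, in percent; markers are summed counts of a set with the 95% Wilson interval, bars are the quartiles and dashes the medians over single cells with at least 20 counts of the pair (cells of CD3e-/- set 1 not shown). For Cox7a1 the CD8-depleted sets stand at 89.81% and 94.23% and the WT sets at 81.65% and 86.63%.

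Among complex IV subunits without a muscle form, Cox4i1 had 5367 and 5552 CPM in the CD8-depleted sets, 733 and 4128 CPM in the CD3e-/- sets and 3690 and 4516 CPM in the WT sets. Cox5b, a zinc-binding subunit facing the matrix, had 4929 and 8383 CPM, 526 and 4319 CPM, and 3807 and 4626 CPM in the same sets. These 2 subunits were above both WT sets, whereas Cox5a, Cox7b and Cox7c were below both and Cox6b1, Cox6c and Cox7a2l overlapped. Of the isoforms of other tissues, Cox6b2 had 6 and 0 counts in CD8-depleted cells, 5 and 16 in CD3e-/- cells and 97 and 11 in WT cells. Its fitted log2 fold change of -2.31 had a standard error of 2.20 and depends on the prior count, since 1 set was at 0.

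In ATP synthase the median log2 fold change was below 0 for the catalytic head and above 0 for the membrane part, with overlap in single genes. The F1 head makes ATP from ADP and is built of the alpha, beta, gamma, delta and epsilon subunits, and 4 of its 5 genes had values below 0 in CD8-depleted against WT cells, with a median of -0.251 over 6 sets. The exception was Atp5d, the delta subunit, with 855 and 846 CPM in the CD8-depleted sets, 218 and 621 CPM in the CD3e-/- sets and 529 and 739 CPM in the WT sets. The 5 small genes of the membrane part, Atp5j2, Atp5k, Atp5l, Atp5md and Atp5mpl, all had values above 0, with a median of 0.138. Of these, Atp5l, Atp5md and Atp5mpl overlapped WT, as did Atp5b of the head. Atp5k, subunit e, which takes part in the dimer contact of the enzyme (chromosome 5, 108433244 to 108434448), had 1413 and 2061 CPM in the CD8-depleted sets, 309 and 1038 CPM in the CD3e-/- sets and 931 and 940 CPM in the WT sets. Both CD8-depleted sets were above WT, with a log2 fold change of 0.88 and a standard error of 1.14 over 6 sets (adjusted p = 1) and 0.86 with a standard error of 0.370 over 5 sets (adjusted p = 0.409).

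The peripheral stalk, which holds the head against rotation, was divided 2 against 2. Atp5h, the d subunit (chromosome 11, 115415689 to 115419962), had 5533 and 9015 CPM in the CD8-depleted sets, 428 and 4580 CPM in the CD3e-/- sets and 3505 and 3955 CPM in the WT sets. Its log2 fold change was 0.94 with a standard error of 1.57 over 6 sets (adjusted p = 1) and 0.92 with a standard error of 0.406 over 5 sets (adjusted p = 0.424). Atp5pb, subunit b (chromosome 3, 105942698 to 105960099), lay on the other side of WT, with 1380 and 855 CPM in the CD8-depleted sets, 470 and 1694 CPM in the CD3e-/- sets and 2071 and 1615 CPM in the WT sets. Its log2 fold change was -0.69 with a standard error of 1.18 over 6 sets (adjusted p = 1) and -0.72 with a standard error of 0.374 over 5 sets (adjusted p = 0.529). Atp5j, coupling factor 6, was likewise below WT with 2088 and 1696 CPM in the CD8-depleted sets, 360 and 2462 CPM in the CD3e-/- sets and 3311 and 2859 CPM in the WT sets. Its log2 fold change over 5 sets was -0.71 with a standard error of 0.376 (adjusted p = 0.538). Atp5h, Atp5k and Atp5pb depended on the set left out less than the muscle isoforms did, giving 0.596, 0.631 and -0.358 without CD8-depleted set 2 and 1.20, 1.07 and -1.15 without set 1.

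The c ring, whose rotation couples proton flow to the head, is encoded by 3 genes that give the same mature protein. Atp5g1 had 6958 and 6833 CPM in the CD8-depleted sets, 542 and 5593 CPM in the CD3e-/- sets and 10156 and 9152 CPM in the WT sets. Atp5g3 had 1596 and 1251 CPM, 675 and 1457 CPM, and 1882 and 1924 CPM in the same sets, and Atp5g2 had 218 and 267 CPM, 61.2 and 169 CPM, and 225 and 214 CPM. Atp5g1 and Atp5g3 were below both WT sets in CD8-depleted cells and Atp5g2 overlapped. Per exon length Atp5g1 supplied 62.2% and 65.5% of the 3 genes' counts in CD8-depleted sets, 24.2% and 59.7% in the CD3e-/- sets and 67.5% and 64.8% in the WT sets.

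**Figure D4:**
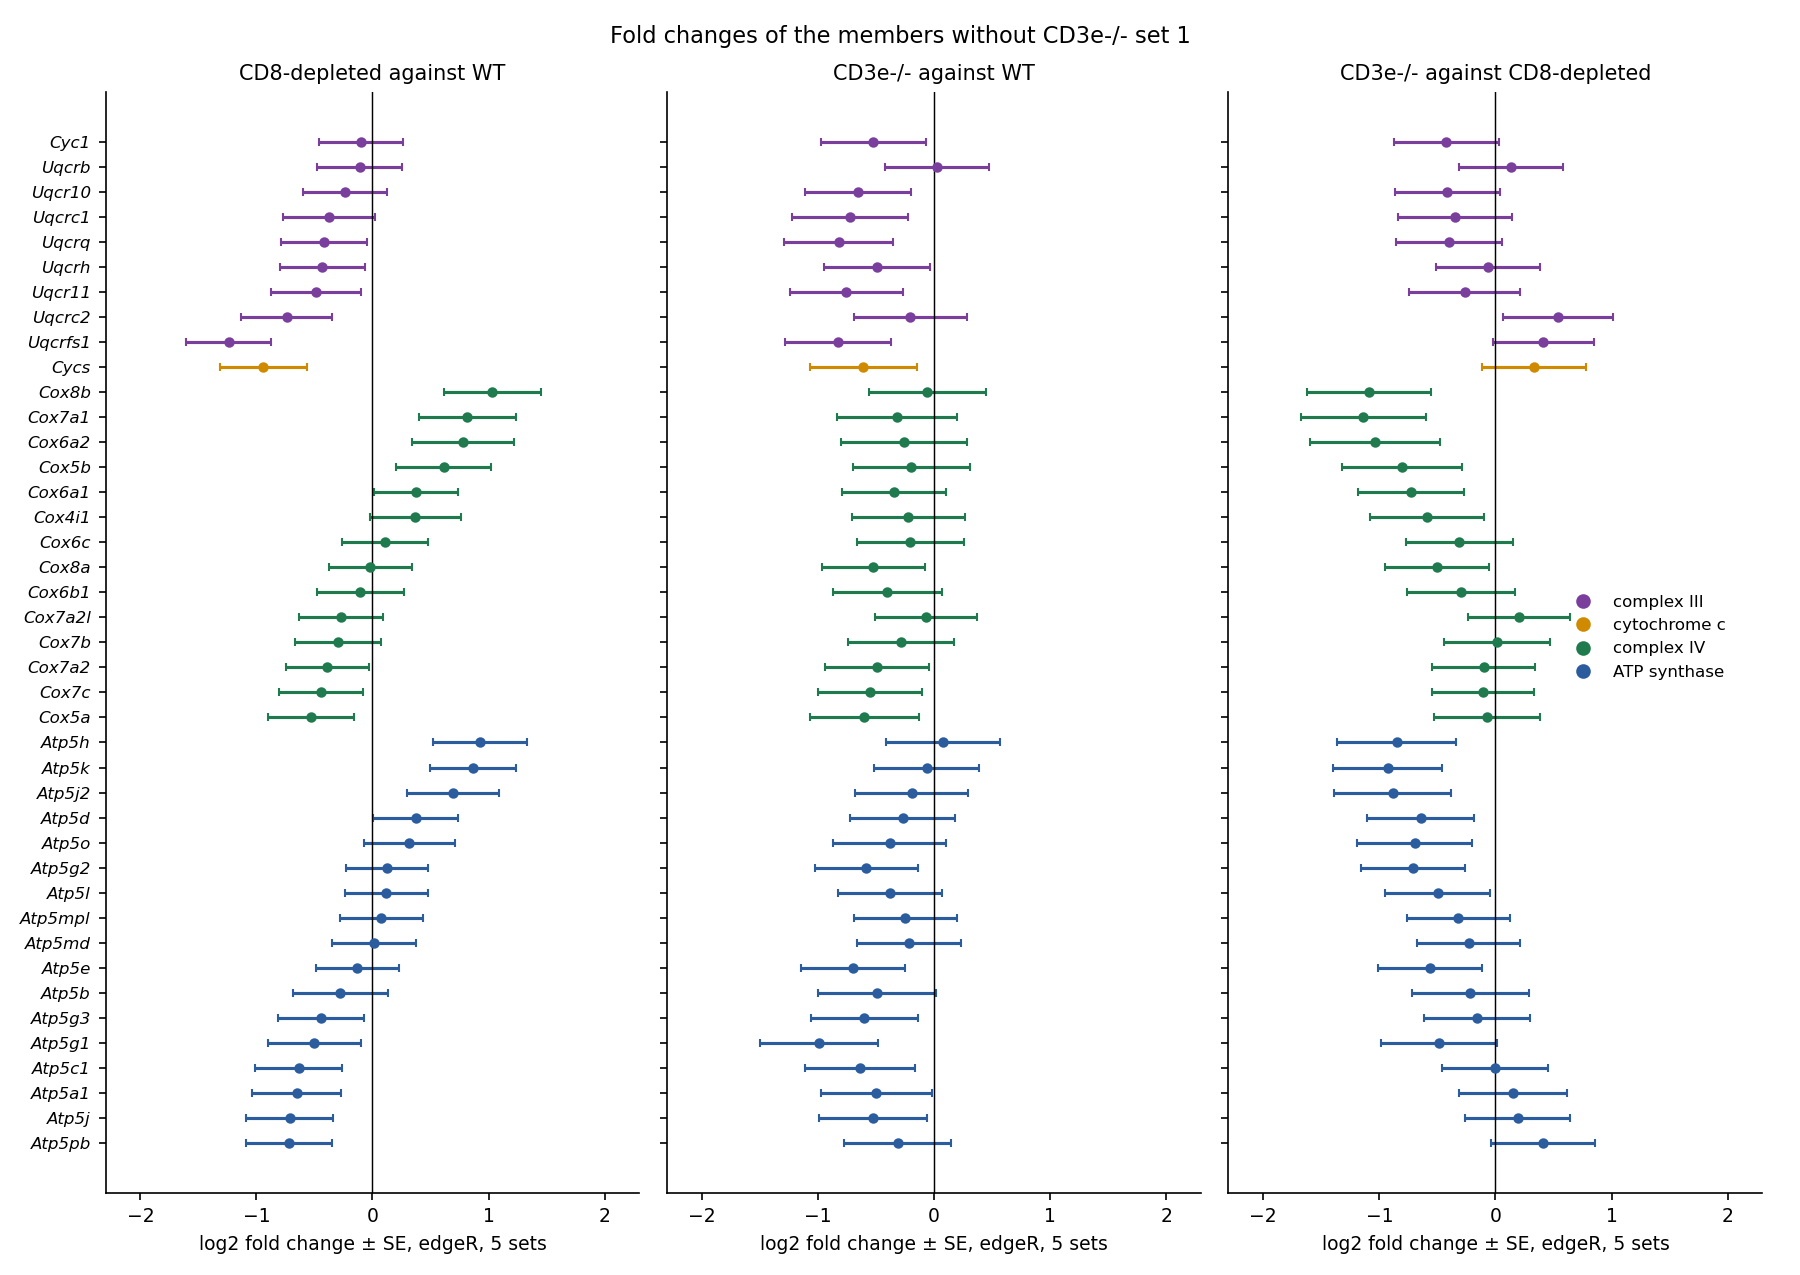
Log2 fold change of the 41 members at or above 100 CPM over the 5 sets without CD3e-/- set 1, in 3 panels, with bars of 1 standard error, computed from edgeR's fold change and F statistic. In CD8-depleted against WT cells values run downward to -1.24 for Uqcrfs1 and upward to 1.03 for Cox8b, and no member passed an adjusted p of 0.05 in any panel.

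In cells labelled CD3e-/- against WT cells nearly all members were lower in value, and the size of that difference rested on CD3e-/- set 1. Over 6 sets edgeR called 0 members, with 0.0% of genes called, and 0 members and 1071 genes had an unadjusted p under 0.05, while DESeq2 called 630 genes and no member. Over 5 sets edgeR called 0 members and 0.127% of genes, with 0 members and 329 genes at an unadjusted p under 0.05. The median log2 fold change of the members was -1.20 over 6 sets, with 42 of 44 below 0, and -0.447 over 5 sets, with 41 of 44 below 0, against 0.010 and -0.056 for all genes. With CD3e-/- set 2 left out instead, so that set 1 stood alone, 41 of 44 members were called and so were 33.2% of genes, at a median of -3.31. Scaling by library size alone placed the median of all genes at 0.680 and that of the members at -0.830 over 6 sets. The cardiomyocyte markers moved with the members, all 10 having values below 0 over 6 sets at a median of -1.12, and 8 of 10 over 5 sets at a median of -0.362.

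CD3e-/- set 2, the deeper set, lay below both WT sets in 23 of 44 members, with a background of 18.4% over all genes. It lay above both in 4 (Atp5h, Atp5k, Cox7b2 and Cox8b), with a background of 39.9%, and between them in 17. Among genes at or above 100 CPM the backgrounds were 24.4% below and 31.7% above, against 23 and 3 of the 41 members there. Over 5 sets the smallest p belonged to Atp5g1, with a log2 fold change of -0.99 and a standard error of 0.511 (adjusted p = 1), and -1.90 with a standard error of 1.69 over 6 sets. Uqcrfs1 had -0.83 with a standard error of 0.457 over 5 sets (adjusted p = 1) and -1.63 with a standard error of 1.13 over 6 sets (adjusted p = 0.775). Uqcrq, a small subunit at the ubiquinone side of complex III, had 546 and 1644 CPM in the sets labelled CD3e-/- and 2599 and 2431 CPM in the WT sets, with -0.82 and a standard error of 0.469 over 5 sets (adjusted p = 1). Atp5e, the epsilon subunit of the head, had 422 and 665 CPM in the CD3e-/- sets and 940 and 925 CPM in the WT sets, with -0.70 over 5 sets and -1.26 over 6 sets. Among members below 0 the smallest p over 6 sets belonged to Atp5g2, with -1.30 and a standard error of 0.886 (adjusted p = 0.771), and Cox8a had -1.10 with a standard error of 0.859 (adjusted p = 0.799).

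The muscle isoforms of set 2 were near WT, and their log2 fold changes over 5 sets were -0.0566 for Cox8b, -0.320 for Cox7a1 and -0.257 for Cox6a2. With the exon length trend removed over 6 sets, Cox8b, Cox6a2 and Cox8a took the opposite sign, at 0.243, 0.148 and 0.277. Only 2 members were above 0 over 6 sets. Cox7b2 had 14 and 33 counts in cells labelled CD3e-/-, 5 and 0 in CD8-depleted cells and 23 and 4 in WT cells, with a log2 fold change of 3.40 and a standard error of 2.15 (adjusted p = 0.747). Cox4i2 had 16 and 100 counts in cells labelled CD3e-/-, 7 and 37 in CD8-depleted cells and 90 and 131 in WT cells, with 0.555 and a standard error of 1.32 over 6 sets (adjusted p = 0.905), and -0.544 over 5 sets.

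In cells labelled CD3e-/- against CD8-depleted cells the muscle isoforms were lower in value and complex III showed both signs once CD3e-/- set 1 was left out. Over 6 sets edgeR called 0 members, with 0.0% of genes called, and 0 members and 505 genes had an unadjusted p under 0.05, while DESeq2 called 16 genes and no member. Over 5 sets edgeR called 0 members and 0.015% of genes, with 2 members and 422 genes at an unadjusted p under 0.05. The 2 members were Cox7a1, at -1.14 with a standard error of 0.536, and Cox8b, at -1.09 with a standard error of 0.531 (adjusted p = 1 for both). Cox6a2 followed at -1.04 with a standard error of 0.560 and Atp5k at -0.93 with a standard error of 0.469 (adjusted p = 1 for both). Among members above 0 the smallest p belonged to Uqcrc2, at 0.54 with a standard error of 0.473, followed by Uqcrfs1 with 0.41, Atp5pb with 0.41 and Cycs with 0.33 (adjusted p = 1 for each). The median of the members was -1.06 over 6 sets and -0.304 over 5 sets, against 0.066 and -0.010 for all genes. With CD3e-/- set 1 alone as its group, 41 of 44 members and 25.1% of genes were called. Over 6 sets the smallest p values in each direction belonged to Cox7b2, Cox6b2 and Cox4i2 above 0 and to Atp5g2, Cox6a1, Atp5k and Cox8b below 0, at -1.44, -1.45, -1.71 and -1.87 (adjusted p = 0.942 for each). The comparison shares its CD8-depleted sets with the first and its CD3e-/- sets with the second, so the 3 sets of values are not independent.

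In single cells, complex III medians were again lower in both CD8-depleted sets than in both WT sets, and complex IV medians higher. The median complex III level was 13635 and 13749 CPM in cells of the CD8-depleted sets, 5452 and 13261 CPM in those of the CD3e-/- sets and 18317 and 17588 CPM in those of the WT sets. The median complex IV level was 43365 and 69825 CPM, 7095 and 38652 CPM, and 38388 and 43043 CPM in the same sets, so that CD8-depleted set 1 was only just above WT set 2. The 3 muscle isoforms alone had cell medians of 20872 and 37516 CPM in CD8-depleted sets and 16288 and 20125 CPM in WT sets. The median log2 ratio of complex IV to complex III in a cell was 1.56 and 2.32 in the CD8-depleted sets, 0.980 and 1.53 in the CD3e-/- sets and 1.09 and 1.25 in the WT sets. Cells spread widely around these medians, from 0.793 to 2.35 in CD8-depleted set 1 and from 0.573 to 2.52 in WT set 2. Uqcrfs1 had a median of 527 and 362 CPM in CD8-depleted cells, 88.0 and 620 CPM in CD3e-/- cells and 1286 and 696 CPM in WT cells.

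**Figure D5:**
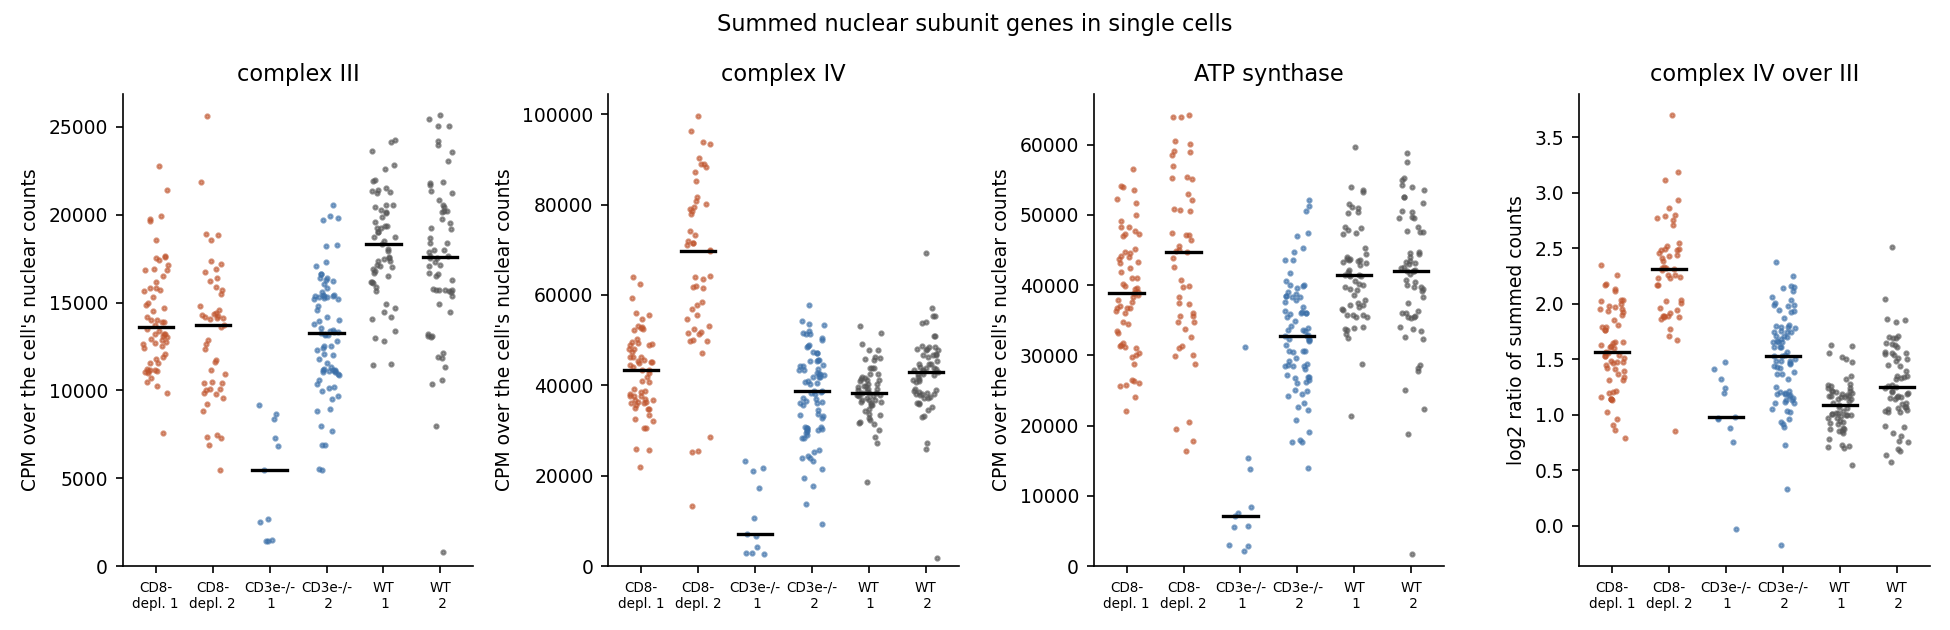
Summed CPM of the nuclear genes of each complex in single cells and, at the right, the log2 ratio of complex IV to complex III; each point is a cell and each black line the median of its set. For complex III the medians of the CD8-depleted sets (13635 and 13749 CPM) lie below those of the WT sets (18317 and 17588 CPM), and the ratio is highest in CD8-depleted set 2, at a median of 2.32.

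Correlations across cells were higher between members than between all genes at or above 100 CPM, which were not matched to them for level. These are rank correlations across the cells of 1 set after thinning each cell to 50000 nuclear counts, given as a description, since cells of a set share library preparation. Cells of CD3e-/- set 1 are left out, with 4 cells at that depth. Over pairs of members the median was 0.240 and 0.299 in CD8-depleted sets, 0.293 in CD3e-/- set 2 and 0.205 and 0.269 in WT sets. For all genes at or above 100 CPM it was 0.0122 and 0.0139, 0.0238, and 0.0174 and 0.0422 in the same sets. Their upper quartiles were 0.117 and 0.128, 0.123, and 0.116 and 0.14. The part of level in this difference was not tested. The pair Cox7a1 and Cox8b had 0.782 and 0.897 in the CD8-depleted sets, 0.819 in CD3e-/- set 2 and 0.626 and 0.691 in the WT sets. The pair Cox6a2 and Cox6a1, forms of the same subunit, had 0.216 and 0.0740, 0.0673, and 0.153 and -0.0279 in the same sets. Cox6a1, at 291 to 535 CPM in these sets, has few counts per cell at that depth. Few counts lower such correlations, by an amount not tested here. Cox6a2 and Uqcrfs1 had negative values in these 5 sets, with -0.431 and -0.242 in the CD8-depleted sets, -0.192 in CD3e-/- set 2 and -0.197 and -0.345 in the WT sets.

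The sums of complex III and ATP synthase followed each other closely across cells, with 0.827 and 0.814 in the CD8-depleted sets, 0.812 in CD3e-/- set 2 and 0.882 and 0.829 in the WT sets. Complex III and complex IV did so less, with 0.174 and 0.456, 0.352, and 0.543 and 0.178. The complex III sum was lower in cells with a larger mitochondrial share of counts, at -0.535 and -0.374 in the CD8-depleted sets, -0.612 in CD3e-/- set 2 and -0.563 and -0.583 in the WT sets. For the ATP synthase sum the same correlation was -0.569 and -0.467, -0.611, and -0.534 and -0.598, so it was not particular to complex III. For the complex IV sum it was -0.190 and -0.343, -0.210, and -0.217 and 0.107. The mitochondrial share was also higher in both CD8-depleted sets than in both WT sets, and its part in the lower complex III values was not tested.

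The members that stood above WT in both CD8-depleted sets also varied together across cells, with a median over their pairs of 0.463 and 0.519 in the CD8-depleted sets, 0.408 in CD3e-/- set 2 and 0.224 and 0.381 in the WT sets. Those below WT had 0.348 and 0.370, 0.457, and 0.297 and 0.470 in the same sets. Between members of the 2 kinds the median was 0.0167 and 0.198, 0.0990, and 0.167 and 0.0573. These 2 kinds were picked from the sums of these cells, so the values are a description only.

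The subunits encoded in mitochondrial DNA were set against their nuclear partners. The 3 transcripts mt-Co1, mt-Co2 and mt-Co3 took 31.9% and 26.7% of all counts in CD8-depleted sets, 25.0% and 24.3% in the CD3e-/- sets and 17.9% and 25.8% in the WT sets. For every 1000 of these counts there were 10.05 and 24.5 nuclear complex IV counts in CD8-depleted sets, 2.52 and 15.4 in the CD3e-/- sets and 50.2 and 26.9 in the WT sets. Set against their mitochondrial partners, nuclear complex IV counts were therefore lower in the CD8-depleted sets than in the WT sets, the reverse of their order among nuclear counts. mt-Cytb, the partner in complex III, took 26.1% and 23.3% of all counts in CD8-depleted sets, 16.8% and 32.3% in the CD3e-/- sets and 29.4% and 25.4% in the WT sets. For every 1000 of its counts there were 4.23 and 5.72 nuclear complex III counts among CD8-depleted cells, 1.68 and 4.50 among CD3e-/- cells and 14.8 and 12.8 among WT cells. mt-Atp6 and mt-Atp8, which overlap each other in the mitochondrial genome, took 0.123% to 0.239% of all counts in the 6 sets, and how reads in overlapping genes were counted is not given in the sources used here. For every 1000 counts of mt-Atp6 and mt-Atp8 there were 1609 and 2464 nuclear ATP synthase counts among CD8-depleted cells, 466 and 1639 among CD3e-/- cells and 4131 and 4277 among WT cells. In all 3 complexes the nuclear counts per mitochondrial partner count were thus lower in both CD8-depleted sets than in both WT sets. The mitochondrial share of a cell's counts was higher there, at a median of 94.0% and 90.8% against 77.3% and 85.3% in WT sets. With mitochondrial counts kept in the totals, 36 of 44 members and 56.4% of all genes stood below WT. A lower level relative to mitochondrial counts was therefore not limited to these complexes.

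Among other genes of oxidative phosphorylation, all 4 subunits of complex II, which feeds electrons from succinate, were below 0 in CD8-depleted against WT cells, with a median log2 fold change of -0.828 over 6 sets and 0 called. Sdha, its flavoprotein, had 687 and 385 CPM in the CD8-depleted sets, 374 and 920 CPM in the CD3e-/- sets and 1345 and 1098 CPM in the WT sets, with -1.19 and a standard error of 0.375 over 5 sets (adjusted p = 0.209). Sdhd, which anchors complex II in the membrane, had 368 and 250 CPM, 160 and 559 CPM, and 767 and 507 CPM in the same sets, with -1.03 and a standard error of 0.360 (adjusted p = 0.281). Both genes were below WT in both CD8-depleted sets. Over 6 sets their standard errors were larger, at 1.06 for Sdha and 1.01 for Sdhd. Complex I, the entry point of NADH electrons, had 20 of 37 subunits above 0 and 17 below over 6 sets, at a median of 0.033 and 0 called. Of 28 genes tested in the list for assembly of complexes III and IV, 10 were above 0 and 18 below, at a median of -0.376 and 0 called. Pet100, needed to build complex IV, had 85.4 and 178 CPM in the CD8-depleted sets, 8.27 and 78.6 CPM in the CD3e-/- sets and 56.5 and 52.3 CPM in the WT sets, with 1.25 and a standard error of 0.405 over 5 sets (adjusted p = 0.226). Ttc19, which clears Rieske protein fragments from complex III, had 18.97 and 27.1 CPM, 13.2 and 51.5 CPM, and 66.3 and 43.7 CPM in the same sets, with -1.25 and a standard error of 0.458 (adjusted p = 0.304). Both were named for their p. Over the 28 genes of this list 2 stood above both WT sets in both CD8-depleted sets, 11 stood below and 15 overlapped. Of all genes, 21% and 19.8% stood above and below. The 11 include Ndufa4 and Lrpprc, which are not assembly factors. Uqcc2, an assembly factor of complex III, was at 0.81 with a standard error of 0.356 (adjusted p = 0.424), and Coa5, an assembly factor of complex IV, at -1.18 with a standard error of 0.423 (adjusted p = 0.292).

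Of 6 assembly and accessory genes of ATP synthase, 5 were below 0 and 1 above, at a median of -0.647 over 6 sets and 0 called. The one above was Atpif1, the inhibitor that stops the enzyme from consuming ATP, with 687 and 1062 CPM in the CD8-depleted sets, 117 and 661 CPM in the CD3e-/- sets and 564 and 513 CPM in the WT sets, and 0.68 with a standard error of 0.361 over 5 sets (adjusted p = 0.545). Tmem70, which helps to assemble the c ring, was at -0.81 with a standard error of 0.373 (adjusted p = 0.449), and Atpaf1, a chaperone of the F1 head, at -0.90 with a standard error of 0.485 (adjusted p = 0.555). Of 11 regulators of respiratory chain genes, 4 were above 0 and 7 below, with 0 called. Ppargc1b, a coactivator of mitochondrial biogenesis, had 92.0 and 66.6 CPM in the CD8-depleted sets, 44.7 and 60.4 CPM in the CD3e-/- sets and 30.5 and 36.5 CPM in the WT sets. Both CD8-depleted sets were above WT, with a log2 fold change of 1.21 and a standard error of 0.430 over 5 sets (adjusted p = 0.290). Esrrg, an estrogen-related receptor, had 6.93 and 16.6 CPM, 46.3 and 31.1 CPM, and 38.2 and 18.9 CPM in the same sets, with -1.26 and a standard error of 0.577 (adjusted p = 0.450). The transcription factor Nrf1 had 12.7 and 13.2 CPM, 59.5 and 6.98 CPM, and 5.15 and 3.31 CPM, with 1.62 and a standard error of 0.821 (adjusted p = 0.514), and Yy1 had 15.3 and 17.2 CPM, 39.7 and 41.4 CPM, and 45.6 and 21.1 CPM, with -0.999 and a standard error of 0.516 (adjusted p = 0.523). These 4 regulators were chosen by their p and all are at low levels. Of the 11, 3 stood above both WT sets in both CD8-depleted sets, 2 stood below and 6 overlapped, and the shares over all genes were 21% and 19.8%.

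In cells labelled CD3e-/- against WT cells over 5 sets, 4 of 4 complex II, 34 of 37 complex I, 21 of 28 assembly, 5 of 6 ATP synthase accessory and 5 of 11 regulator genes were below 0, with 0 called in each list. In the same cells against CD8-depleted cells the counts below 0 were 1 of 4, 30 of 37, 12 of 28, 4 of 6 and 7 of 11, with 0 called. Complex I thus stood with the members in both, at medians of -0.334 and -0.396.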

How the data were processed

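Smart-seq2 libraries of 375 single cardiomyocytes were used. The submitters' processing notes name fastp 0.21.0 for trimming, STAR 2.7.5c and mm10 for alignment and featureCounts for counting (version, strand setting and treatment of reads with several alignments not given in the sources used here). The deposited values are raw counts. Cells with fewer than 3000 detected genes (53) and 2 cells with identical counts, which spanned both CD3e-/- sets, were left out. Counts were summed per numbered set, never tested per cell, and the 13 mitochondrially encoded genes were left out of totals and tests. CPM used plain totals.

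Groups were compared by edgeR 4.0.16 (TMM, filterByExpr, quasi-likelihood test, Benjamini-Hochberg adjustment over all genes, R 4.3.3), tested on simulated data, over 6 sets (biological coefficient of variation 0.818, 3 residual degrees of freedom) and without CD3e-/- set 1 (0.626, 2). The lone CD3e-/- set is then assumed to vary like the other groups. Standard errors beside edgeR values were computed from each log2 fold change and its F statistic, since the quasi-likelihood test gives none. DESeq2 1.42.0, limma 3.58.1 and other filters, depths and scalings were alternatives.

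The members and gene lists were chosen with earlier results of these data known. Fully described were, per comparison, called members, the 4 members with the smallest p in each direction, isoform pairs and the member highest per kilobase in each complex; of other lists, called genes and the 2 with the smallest p in each direction, printed for CD8-depleted against WT cells over 5 sets. Members overlap exons of 11 other genes, 10 on the opposite strand.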

Additional observations from a re-analysis of the deposited data

How the results depend on the processing

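In CD8-depleted against WT cells, 0 genes were called over 6 sets. This count was 8 with DESeq2, 12 with no low-count filter and 0 to 47 with 1 set left out. Alternatives added after seeing the data gave 156 (DESeq2 over 5 sets), 12 (cells thinned, 5 sets) and 2 (the 4 sets of both groups alone), and 1 member was called by DESeq2 over 5 sets. The median log2 fold change of the members, -0.235, was -0.128 with cells of at least 5000 detected genes, -0.0390 with cells thinned to 50000 counts, -0.0464 with cells thinned over 5 sets, -0.120 with the replicate block, and -0.284 to -0.101 with 1 set left out. Cox8a, at -0.0026, changed sign with DESeq2 (0.0260), cells of at least 5000 genes (0.0608), thinning (0.0340), DESeq2 over 5 sets (0.0354), thinning over 5 sets (0.0270) and 4 sets (0.0172), and ranged between -0.314 and 0.232 with 1 set left out.

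In CD3e-/- against WT cells, genes called were 630 with DESeq2, 303 with no filter and 0 to 4588 with 1 set left out, and members called 0 to 41. The members' median of -1.20 ranged between -3.31 and -0.447. Cox4i2 was -0.135 with limma-voom and -0.544 to 1.14 with 1 set left out. Removing the exon length trend gave 0.277 for Cox8a, 0.148 for Cox6a2 and 0.243 for Cox8b. In CD3e-/- against CD8-depleted cells, genes called were 16 with DESeq2, 106 with no filter and 0 to 3472 with 1 set left out, and members called 0 to 41. The median of -1.06 ranged between -3.16 and -0.304, and Cox4i2 was -0.0455 to 2.96. The cause of these changes was not tested.

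Set numbers are shared by the groups, but same-numbered sets did not deviate together (correlations of -0.0449, 0.0629 and -0.187), so they are not treated as paired. With the replicate block, 0 genes and 0 members were called in each comparison, and the members' medians were -0.120, -1.59 and -1.47. Depth limits CD3e-/- set 1 most, with 604652 nuclear counts from 11 cells. With 2 sets a group, differences within the spread between sets cannot be told from none.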

Other observations

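The pseudogene Cox5b-ps, which is not a member, had 20.1 to 46.3 CPM in the 6 sets. In WT set 2, 1 cell had 4375 CPM over all members, while the median of its set was 104050 CPM.

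Across the 44 members tested, the rank correlation of exon length with the 5-set log2 fold change was -0.251 in CD8-depleted against WT cells, and 0.0968 over all genes tested. At or above 100 CPM it was -0.367 over the 41 members and 0.00369 over all 1216 genes. Exon length had a median of 1508 bases in the 10 members above WT and 2004 bases in the 18 below.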
